A study of Homo sapiens with 4 samples.

Results

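The genes described are AP-1 and immediate-early transcription factors, taken as every probe set annotated to JUN, JUNB, JUND, FOS, FOSB, FOSL2, BATF, EGR1, EGR2 or NR4A1 alone. Of these 10 genes, 9 had such probe sets, 31 of the 49386 on the array, and EGR2 is not analysed here. They were measured in 2 established human mantle cell lymphoma (MCL, a B-cell malignancy) lines, REC-1 and Z138, each grown once as a control and once with CC-292, a covalent inhibitor of Bruton tyrosine kinase (BTK). The groups were REC-1 control at 48 h, REC-1 with CC-292 at 48 h, Z138 control with no time in its title, and Z138 with CC-292 at 48 h. Each group was 1 array from 1 culture, so a difference between 2 arrays has no test, and the error between cultures is unknown. The treatment protocol gives a dose of 1 uM and the titles of the treated samples 1 mM. The labels used here name no vehicle.

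Immediate-early genes are transcribed within minutes of a stimulus without new protein synthesis, and their mRNAs are short-lived. In B cells, the antigen receptor signals through BTK to calcium and to the MAP kinases, which act on SRF with its ELK partners and on CREB at these genes. The JUN, FOS and BATF proteins carry a leucine zipper and pair with each other to form the dimers called AP-1. EGR1 is a zinc-finger factor and NR4A1 (NUR77) an orphan nuclear receptor, widely used as a reporter of antigen receptor signalling.

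RefSeq promoters (GRCh38.p14) were found for all 10 genes, 13 start sites in all. The 150 bases upstream of the start site are printed 5′ to 3′ for EGR1, FOS and JUN, and for FOSB and JUNB. Of the genes with several probe sets, EGR1, FOS and JUN had all of them lower with CC-292 in REC-1. FOSB and JUNB hold the same CRE core, as do FOSL2, JUND and EGR2, which are not printed. BATF, lower in REC-1 on its only probe set, as JUNB was, has no such core and is not printed. Capitals mark matches on either strand to the CArG box, to which SRF binds, the CRE core TGACG, to which CREB and ATF factors bind, the AP-1-like site TGACATCA, and TATAAA.
EGR1 (chr5:138465329-138465478, plus strand): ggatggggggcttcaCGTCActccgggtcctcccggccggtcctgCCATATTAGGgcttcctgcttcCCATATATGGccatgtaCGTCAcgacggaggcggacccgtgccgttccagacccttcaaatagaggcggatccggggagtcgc
FOS (chr14:75278678-75278827, plus strand): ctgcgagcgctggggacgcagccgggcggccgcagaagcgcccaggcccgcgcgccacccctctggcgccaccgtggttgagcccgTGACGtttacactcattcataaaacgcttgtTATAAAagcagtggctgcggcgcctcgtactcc
FOSB (chr19:45467846-45467995, plus strand): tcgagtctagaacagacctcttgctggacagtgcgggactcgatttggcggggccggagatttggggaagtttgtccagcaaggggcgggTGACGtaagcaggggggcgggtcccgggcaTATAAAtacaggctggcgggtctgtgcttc
JUN (chr1:58784048-58784197, minus strand): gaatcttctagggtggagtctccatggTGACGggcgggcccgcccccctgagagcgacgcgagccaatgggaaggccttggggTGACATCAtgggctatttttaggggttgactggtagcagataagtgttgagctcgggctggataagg
JUNB (chr19:12791336-12791485, plus strand): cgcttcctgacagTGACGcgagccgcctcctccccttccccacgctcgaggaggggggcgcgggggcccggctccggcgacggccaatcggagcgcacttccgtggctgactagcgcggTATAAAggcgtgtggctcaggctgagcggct
Within 250 bases upstream, the core TGACG occurred at 8 of the 13 start sites, against 21.2% of 35116 promoters in the table. These 8 belong to 8 genes, all but BATF and NR4A1. A CArG box occurred at 2 of the 13, with 2 boxes upstream of EGR1 and 1 upstream of a start site of EGR2, against 1.16% of promoters. Bases further upstream, of FOS or any other gene, were not searched. TATAAA lay upstream of 1 start site each of FOS, FOSB and JUNB (10.7% of promoters), TGACATCA upstream of JUN (2.38%), and the full site TGACGTCA, which contains the core on both strands, upstream of JUND (1.65%). The AP-1 site TGACTCA, found in 4.20% of promoters, was in none of these windows. A match is a description of the letters in this window and shows no binding. A relation of the matches to the CC-292 differences was not tested.

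Array medians were 4.63 to 4.64, and the 23 nonspecific probe sets had medians of 3.06 to 3.12 and a highest value of 7.09. B-cell and MCL markers reached the brightness minimum (log2 4.63, the median of all values) on every array for 7 of 8 genes, with CCND1 at 11.83 to 11.95, MS4A1 at 11.74 to 12.03 and SOX11 at 8.43 to 9.29. The exception was CD5, an antigen usual in MCL, at 4.04 or less. No NK marker (0 of 3) and no myeloid marker (0 of 5) reached the minimum on any array. Of the T-cell genes, CD3E and CD2 did not either, but 2 of 4 T-cell genes did on some array: CD3G in Z138 (5.96 and 6.07) and CD3D in REC-1 with CC-292 (4.81). ACTB read higher at its 3′ than at its 5′ end, which bears on RNA integrity, by 0.77 and 0.53 in REC-1 (control, CC-292) and by 1.12 and 1.11 in Z138. GAPDH went the other way, with 3′ minus 5′ differences of -0.32 and -0.31 in REC-1 and -0.28 and -0.24 in Z138.

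All values are log2 signals of one probe set, so that a difference of 1 is 2-fold, and levels are compared only within a probe set. Signals were low: 21 of the 31 probe sets reached the brightness minimum on at least 1 array and 6 on all 4. None exceeded the brightest nonspecific probe set on all 4 arrays, and 26 exceeded it on none. All 9 genes passed the minimum through their brightest probe set, which stands for the gene where 1 value is given, so the minimum left out no measured member. FOSB and FOSL2 passed on 1 array only, the Z138 control, FOS on both control arrays, and JUN and BATF on both REC-1 arrays. On the other arrays these 5 genes had signals below the minimum. The SD given for a gene is that between its probe sets, which share the array and do not hold the error between cultures. For genes of like brightness (log2 4 to 7), probe sets of one gene had a pooled SD of 0.41 in their CC-292 difference in REC-1, 0.34 in Z138 and 0.63 in the comparison of controls. In a culture, fewer cells with an mRNA and less of it per cell cannot be told apart.

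**Figure D1:**
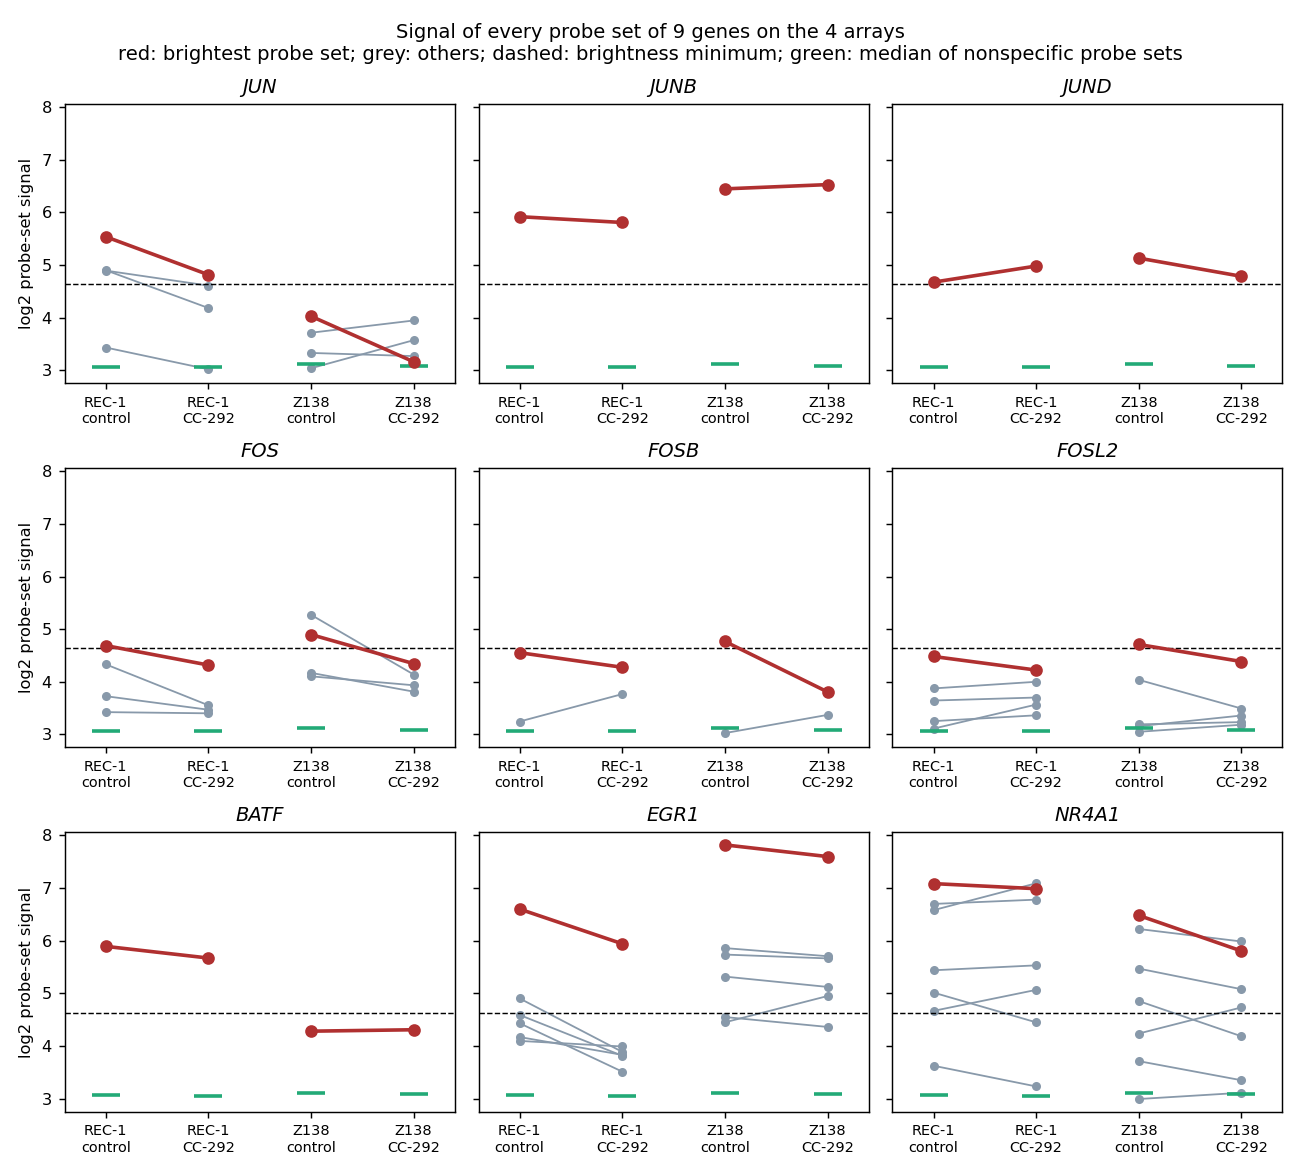
Log2 signal (vertical axis) of each of the 31 probe sets of 9 genes on the 4 arrays (horizontal axis), 1 panel per gene, with lines joining control and CC-292 of a line. JUN and BATF lie higher in REC-1 and EGR1 higher in Z138, and most single values of JUN, FOS, FOSB and FOSL2 lie below the dashed brightness minimum of 4.63.

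With CC-292, most of these genes read slightly lower in each line by their brightest probe set, none by 2-fold. In REC-1, 8 of 9 genes were below 0, led by JUN at -0.72 and EGR1 at -0.66, with a median of -0.26 against -0.05 for all 10823 genes that passed the minimum. In Z138, 7 of 9 were below 0, with a median of -0.35 against 0.01. The lowest were FOSB at -0.96, which reached the minimum only on the Z138 control that this difference uses, JUN at -0.87, below the minimum on both Z138 arrays, and NR4A1 at -0.68, above it on both. Of all genes, 57.8% in REC-1 and 48.1% in Z138 were below 0. JUN, FOS, FOSB, FOSL2, EGR1 and NR4A1 were below 0 in both lines, as were 26.5% of all genes. The count of 0 at 2-fold stands against 1.60% of all genes in REC-1 (0.758% lower, 0.841% higher) and 0.564% in Z138 (0.351% lower, 0.213% higher). With each gene's probe sets averaged, 5 rather than 8 were below 0 in REC-1, the median was -0.11 there and -0.10 in Z138, and FOSB, FOSL2 and NR4A1 turned above 0 in REC-1. Only JUN, FOS and EGR1 were then below 0 in both lines, with JUN at -0.04 and EGR1 at -0.06 in Z138. With the middle difference among its probe sets standing for a gene, 5 rather than 7 were below 0 in Z138, where JUN (0.09) and FOSL2 (0.04) turned above 0.

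Over the 31 probe sets, 21 were below 0 in REC-1 and 20 in Z138, and 15 were below 0 in both lines, where 55.7%, 48.5% and 26.5% of all 45259 probe sets with 1 gene were. Of the 15, EGR1 gave 5 and FOS 4. Single probe sets reached 2-fold lower once in each line, 1 of EGR1 in REC-1 (-1.01) and 1 of FOS in Z138 (-1.13). At 2-fold either way, the share over all 45259 probe sets was 1.51% in REC-1 and 0.55% in Z138.

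**Figure D2:**
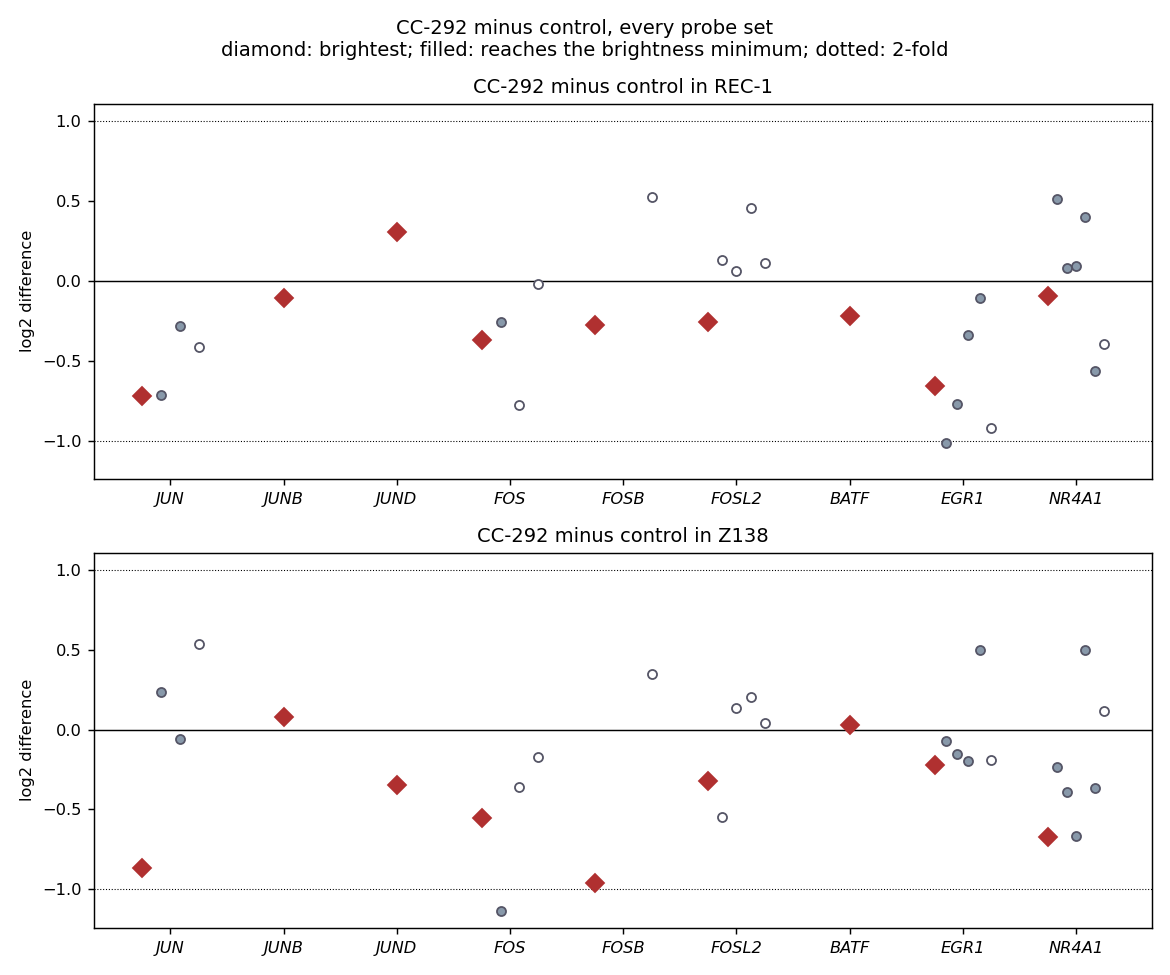
Log2 difference, CC-292 minus control (vertical axis), of every probe set by gene (horizontal axis) in REC-1 (top) and Z138 (bottom), with diamonds for the brightest. All probe sets of JUN, FOS and EGR1 lie below 0 in REC-1, and in Z138 only FOS, of the genes with several, has all of them below 0. Open symbols never reach the brightness minimum.

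JUN, the founding AP-1 subunit and a strong activator, had 5.54 on the REC-1 control, 4.81 on REC-1 with CC-292, 4.02 on the Z138 control and 3.16 on Z138 with CC-292 by its brightest probe set. Both REC-1 arrays were above both Z138 arrays, and Z138 with CC-292 was close to the median of nonspecific probe sets there (3.08). All 4 probe sets were lower with CC-292 in REC-1, from -0.72 to -0.29 (mean -0.53, SD 0.22). In Z138 they disagreed, from -0.87 to 0.53 (mean -0.04, SD 0.60), and the third, at -0.06, was the only other one below 0.

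JUNB, which restrains JUN in many settings, had a single probe set that read 5.92 and 5.81 in REC-1 and 6.44 and 6.53 in Z138 (control, CC-292). The CC-292 differences of -0.11 and 0.08 were within the spread between probe sets of a gene. JUND, the subunit commonly present in resting cells, also had 1 probe set, with 4.67 and 4.98 in REC-1 and 5.13 and 4.78 in Z138. The CC-292 difference was 0.31 in REC-1 and -0.35 in Z138, and the arrays of the lines overlapped. By their names, these probe sets, like the brightest of FOSB and NR4A1, are of the type that can share sequence with other transcripts.

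FOS, which binds DNA only as a partner of a JUN protein, was the only one of these genes with every probe set lower in both lines. Its brightest probe set read 4.69 and 4.32 in REC-1 and 4.90 and 4.35 in Z138 (control, CC-292), both controls above both treated arrays. All 4 probe sets were lower in REC-1 (-0.78 to -0.02, mean -0.36, SD 0.32) and in Z138 (-1.13 to -0.17, mean -0.55, SD 0.42). The probe set with the largest Z138 difference read 3.73 and 3.47 in REC-1 and 5.27 and 4.14 in Z138, so that the Z138 control stood out. Only 2 of the 4 FOS probe sets reached the minimum on any array, and none was above it on either treated array.

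FOSB, a FOS relative induced with it, read 4.55 and 4.28 in REC-1 and 4.77 and 3.81 in Z138 on its brighter probe set. The Z138 difference of -0.96 has no exact fold, since the treated value is below the minimum. The other probe set stayed between 3.03 and 3.77, under the minimum on every array, and was higher with CC-292 in both lines, by 0.52 and 0.35. FOSL2 (FRA2), a FOS relative without the strong activation domain, read 4.48 and 4.22 in REC-1 and 4.71 and 4.39 in Z138 on its brightest probe set. The 4 others never reached the minimum, and 4 of 5 were above 0 in REC-1, so its direction differs between probe sets.

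BATF, which lacks an activation domain and pairs with JUN proteins beside IRF4 or IRF8, had 1 probe set, at 5.89 and 5.67 in REC-1 and 4.28 and 4.31 in Z138 (control, CC-292). It was below the minimum in Z138 on both arrays. The CC-292 differences were -0.22 and 0.03, within the spread between probe sets, while the lines did not overlap.

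EGR1, the zinc-finger gene, read 6.60 on the REC-1 control, 5.94 on REC-1 with CC-292, 7.82 on the Z138 control and 7.60 on Z138 with CC-292 by its brightest probe set. Both Z138 arrays were above both REC-1 arrays on 5 of 6 probe sets. In REC-1 all 6 were lower with CC-292, from -1.01 to -0.11 (mean -0.64, SD 0.35). Only the brightest was above the minimum on REC-1 with CC-292, where the others read 3.51 to 3.99. The REC-1 differences of these others thus rest on a treated signal below the minimum. In Z138, 5 of 6 were below 0, the lowest at -0.22, and 1 was at 0.50 (mean -0.06, SD 0.28). The REC-1 difference was below the Z138 difference on 6 of 6 probe sets, the gap running from -0.94 to -0.14 (mean -0.58, SD 0.27). With 1 array per group this has no test.

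NR4A1 read 7.09 and 6.99 in REC-1 and 6.48 and 5.81 in Z138 (control, CC-292) by its brightest probe set, both REC-1 arrays above both Z138 arrays. On 6 of its 7 probe sets the lines separated in this way. With CC-292 in Z138, 5 of 7 were lower, from -0.68 to 0.50 (mean -0.25, SD 0.42), among them the 4 brightest. In REC-1 the probe sets disagreed, 3 lower and 4 higher, from -0.56 to 0.51 (mean 0.00, SD 0.39). EGR1 thus read lower mainly in REC-1, and NR4A1 in Z138 on its brightest probe sets, a difference between lines that was not tested.

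The additive limma fit over the 4 arrays asked whether a gene differed with CC-292 on average over both lines. After Benjamini-Hochberg adjustment it called 0 of 10823 genes (0.00%), with 472 (4.36%) at an unadjusted p under 0.05, and no other tool was run. Of the 9 genes, 3 were among the latter, each lower in both lines: JUN (-0.79, SE 0.16), FOSB (-0.62, SE 0.21) and FOS (-0.46, SE 0.16). Their adjusted p in limma was 0.9999, so none passed. The fit has 1 residual degree of freedom, which is the difference between the responses of the lines, and JUN in Z138 and FOSB in both lines rest on the brightest probe set. FOSB reached the minimum on the Z138 control alone and FOS on the control arrays alone.

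Between the lines the differences were larger. JUN, BATF and NR4A1 were higher in REC-1, and EGR1 and JUNB higher in Z138. On the control arrays, BATF was 1.61 and JUN 1.51 higher in REC-1, and the REC-1 minus Z138 difference of EGR1 was -1.22, or 2.33-fold higher in Z138. BATF and JUN reached the minimum in REC-1 only, so their differences are against Z138 signals below it and give no exact fold. These are 2 of 9 genes at least 2-fold higher in REC-1 and 1 at least 2-fold lower, where 11.9% and 12.4% of all genes were (24.3% either way). In all, 6 of 9 were below 0, against 48.9% of all genes. On the CC-292 arrays the differences were 1.36 for BATF, 1.65 for JUN and -1.66 for EGR1.

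In the same limma fit, the line difference averaged over control and CC-292 passed for 5 of the 9 genes, against 44.7% of all 10823 genes, a share close to that background. JUN was 1.58 higher in REC-1 (SE 0.16, adjusted p = 0.0011), BATF 1.49 (SE 0.16, adjusted p = 0.0015) and NR4A1 0.89 (SE 0.20, adjusted p = 0.0159). JUN and BATF reached the minimum in REC-1 only, and both also passed with no brightness minimum. EGR1 had a REC-1 minus Z138 difference of -1.44 (SE 0.18, adjusted p = 0.0024), and JUNB one of -0.62 (SE 0.16, adjusted p = 0.0259). JUND, FOS, FOSB and FOSL2 did not pass (adjusted p 0.357 to 0.662 in limma). The 2 cultures of a line, 1 of them treated, stand as its replicates here, and nothing in the labels says how they were grown.

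The probe sets gave the same direction for most of these calls. All 7 of NR4A1 were higher in REC-1 and all 6 of EGR1 lower, with and without CC-292. All 4 of JUN were higher in REC-1 on the control arrays and 3 of 4 on the CC-292 arrays. BATF and JUNB rest on 1 probe set each. Beside these values, hybridization controls were 0.33 higher on the REC-1 than on the Z138 control array (median of 9 probe sets), and the ACTB 3′ to 5′ difference also separated the lines. Their part in the line differences was not tested.

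**Figure D3:**
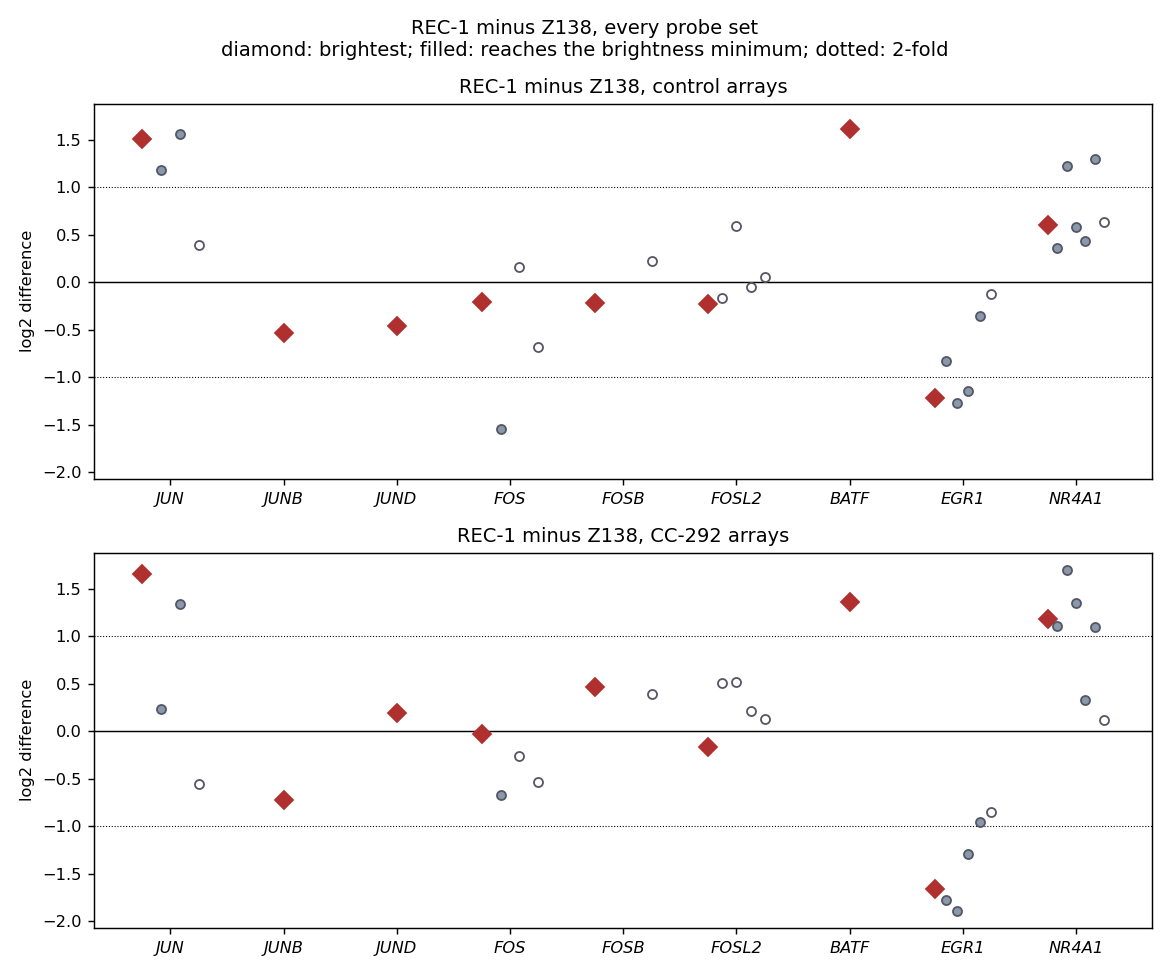
Log2 difference, REC-1 minus Z138 (vertical axis), of every probe set by gene (horizontal axis) on the control arrays (top) and the CC-292 arrays (bottom). NR4A1 and BATF lie above 0 and EGR1 and JUNB below 0 in both panels, while JUND and FOSB change sides on their brightest probe set.

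Genes around this group were taken from 6 lists. Their counts below 0 with CC-292 stand against 57.8% of all genes in REC-1 and 48.1% in Z138. These counts include genes that were below the minimum on all arrays. With CC-292 none of their tested members passed the limma fit. Other members of the AP-1 and bZIP group had medians near or above 0: 5 of 10 were below 0 in REC-1 (median -0.0026) and 4 of 10 in Z138 (median 0.17). Only 5 of the 10 passed the minimum, of which 3 were below 0 in REC-1 and 2 in Z138. The list's largest difference was that of ATF3, a stress-induced partner of JUN, at 6.63 and 4.72 in REC-1 and 6.08 and 5.84 in Z138 (control, CC-292). All 7 of its probe sets were lower in REC-1, with a mean of -0.54 (SD 0.62) against -1.91 on the brightest, and its average over both lines had an adjusted p of 0.9999 in limma. JDP2, a repressor that pairs with JUN, was 1.02 higher in REC-1 but below the minimum on all arrays, and 2 of its 3 probe sets were higher. FOSL1 (FRA1) differed by 0.42 and 0.19.

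Other immediate-early factors did not read lower as a group in REC-1, where 5 of 12 were below 0 (median 0.06). In Z138, 8 of 12 were below 0 (median -0.03). MYC, the growth regulator, differed by 0.36 and 0.06, NR4A2, a relative of NR4A1, by 0.39 and -0.04, and EGR3 by -0.13 and -0.50. Between the lines, 7 of 10 tested passed in limma (44.7% of all genes), 6 of them lower in REC-1, among them KLF10 (-1.44, adjusted p = 0.0054), KLF2, a factor of lymphocyte quiescence (-0.90, adjusted p = 0.0087), and MYC (-0.79, adjusted p = 0.0137). EGR3 also passed (-0.58, adjusted p = 0.0425), but only 1 of its 4 probe sets was lower in REC-1 on the control arrays. EGR3 reached the minimum only on the Z138 control (4.75, against 4.24 with CC-292 and 3.98 and 3.85 in REC-1). NR4A3 was the 1 higher in REC-1 (1.68, adjusted p = 0.0012), but it reached the minimum only on the REC-1 control (4.87, against 4.49 with CC-292 and 3.01 and 2.98 in Z138).

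Upstream regulators were below 0 in 10 of 14 cases in REC-1 (median -0.09) and 6 of 14 in Z138 (median 0.11). SRF, the factor of the CArG boxes printed for EGR1, read 7.59 and 7.16 in REC-1 and 6.98 and 6.75 in Z138 (control, CC-292). Both of its probe sets were lower with CC-292 in REC-1 (mean -0.45, SD 0.03), and they disagreed in Z138. Between the lines, 8 of 14 passed in limma, near the 44.7% of all genes. MEF2C, a calcium-responsive factor of B cells, was 3.28 higher in REC-1 (adjusted p = 2.74e-04), MAPK3, the ERK1 kinase, 1.20 higher (adjusted p = 0.0033), and ELK3, an SRF partner, lower (-3.49, adjusted p = 1.76e-04). On the control arrays both probe sets of ELK3 were lower in REC-1 but by unlike amounts (mean -2.04, SD 2.47, against -3.79 on the brightest). MEF2C was below the minimum on both Z138 arrays, so its difference gives no exact fold.

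Corepressors and turnover factors were below 0 in 5 of 9 cases in REC-1 and 8 of 9 in Z138 (medians -0.11 and -0.07). Between the lines 5 of 9 passed in limma, near the 44.7% of all genes. NAB2, the corepressor that binds EGR1, was lower in REC-1 (-0.97, adjusted p = 0.0054), as EGR1 was. BACH2, a B-cell repressor that competes with AP-1 at its sites, was lower (-2.22, adjusted p = 3.53e-04). ZFP36L2, which promotes decay of AU-rich mRNAs, was higher (1.35, adjusted p = 0.0031).

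Partners of BATF and JUN at composite sites had 5 of 7 below 0 in REC-1 (median -0.29) and 3 of 7 in Z138 (median 0.07) with CC-292. Between the lines 7 of 7 passed in limma (44.7% of all genes), 5 higher and 2 lower in REC-1. IRF8 was 3.07 higher in REC-1 (adjusted p = 1.43e-04) and IRF4 lower (-2.10, adjusted p = 0.0014), so that the IRF partners of BATF lay on opposite sides. NFATC1, which joins AP-1 on cytokine genes, was 3.75 higher (adjusted p = 1.62e-04) and SPIB 2.40 higher (adjusted p = 0.0013). NFATC1 read 6.80 on the Z138 control and 5.79 with CC-292 (-1.01), with 4 of its 5 probe sets lower (mean -0.54, SD 0.44).

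Activation genes that AP-1, EGR or NFAT factors can drive read lower in 10 of 13 cases in REC-1 (median -0.29) and 9 of 13 in Z138 (median -0.26). TNF, IL6, DUSP4 and DUSP6 never reached the minimum. Among the 9 genes that did, 8 were below 0 in REC-1 and 7 in Z138, against 57.8% and 48.1% of all genes. Of the 13 genes, 2 were at least 2-fold lower in REC-1 and 1 in Z138, against 0.758% and 0.351% of all genes. CCL3, a chemokine gene, was 1 in each line, at 6.77 and 5.19 in REC-1 and 5.15 and 4.05 in Z138 (control, CC-292). The other in REC-1 was LTA, the lymphotoxin alpha gene, at 6.53 and 5.43 there and 6.02 and 5.50 in Z138. Of its 2 probe sets, only 1 was lower in REC-1 (mean -0.49, SD 0.86), against 2 in Z138. CCL3 rests on 1 probe set, and its Z138 value with CC-292 was below the minimum. CD69, an early activation antigen gene, read 7.65 and 7.19 in REC-1 and 5.06 and 4.15 in Z138. Between the lines 8 of 9 tested passed in limma (44.7% of all genes), 6 higher in REC-1, among them DUSP5, a nuclear ERK phosphatase (3.01, adjusted p = 2.81e-04), and CD69 (2.81, adjusted p = 2.71e-04), of which 2 of 3 probe sets were higher on the controls, while IL10 was lower (-1.36, adjusted p = 0.0029). DUSP5 was below the minimum on both Z138 arrays and IL10 on both REC-1 arrays, so their differences give no exact fold.

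**Figure D4:**
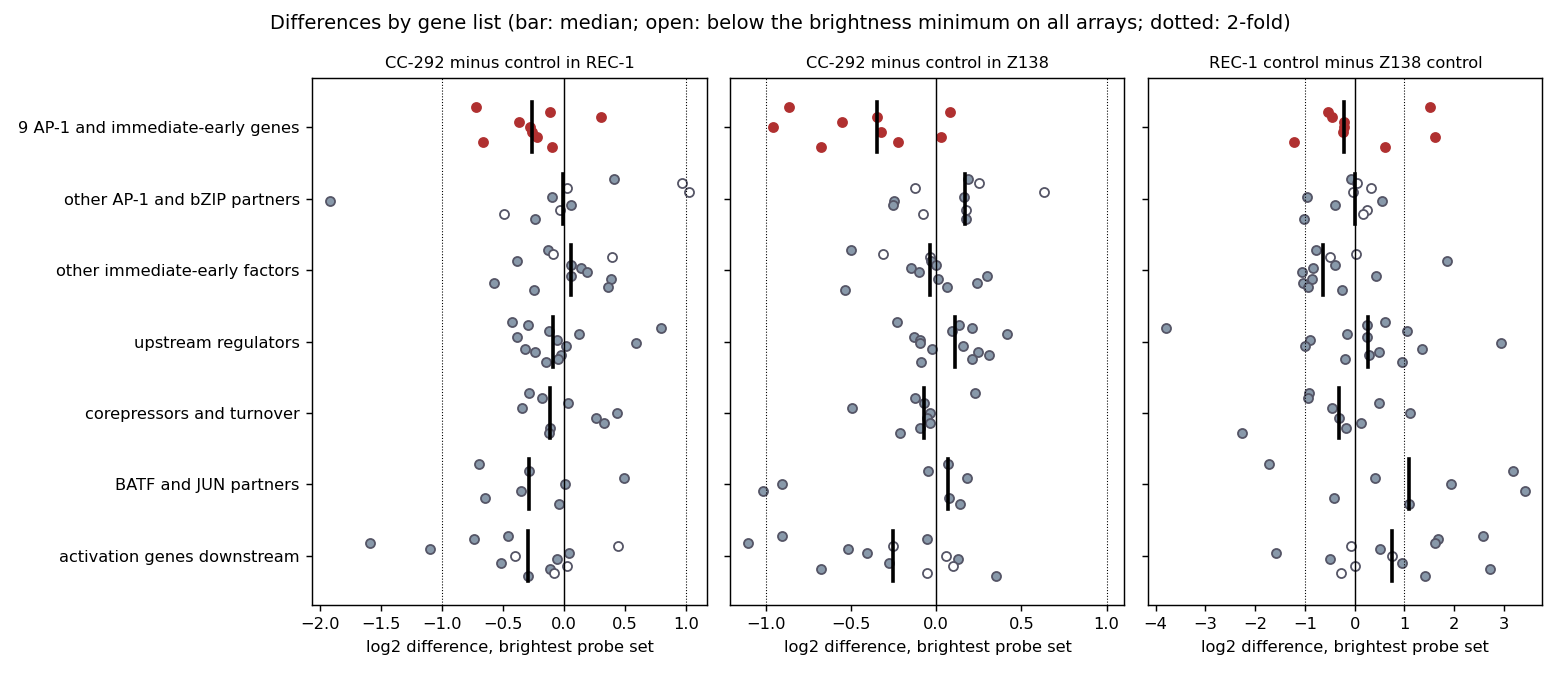
Log2 difference of the brightest probe set (horizontal axis) of each gene, by gene list (vertical axis), for CC-292 minus control in REC-1 and in Z138 and for REC-1 minus Z138 controls, with bars at the medians. The 9 AP-1 and immediate-early genes have medians of -0.26 and -0.35 with CC-292, and the partners of BATF and JUN reach from -1.71 to 3.42 between the lines.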

How the data were processed

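RNA from 4 cultures was hybridised to Affymetrix arrays as biotin-labelled cRNA made from 150 ng of total RNA, per the labels' protocols. The authors deposited log2 probe-set signals, made with RMA and Affymetrix Expression Console 1.1 per the submitters' processing notes; the log2 scale was inferred from the values (2.18 to 14.26). A genome build is not stated there. RMA makes arrays alike in distribution, so a shift of most genes one way would not show. Of 49386 probe sets, 45259 had 1 gene symbol, 1327 several and 2800 none, and only the first kind was used. Each gene took its brightest probe set (by mean over the arrays) and was kept if its highest value reached the median of all values, leaving 10823 of 18239 genes. The number of arrays, 1 per group, limits the precision. For average effects, lmFit and eBayes of limma 3.58.1 (R 4.3.3) were run with an additive model of line and treatment, with Benjamini-Hochberg adjustment at 0.05 over all genes kept, and the script was tested on simulated data. The p-values measure only the spread between these 4 arrays. Other values came from Python 3.11.15 with pandas 2.3.3. Members, lists (73 genes) and tests were chosen with earlier results of these data known. List genes named were those at least 2-fold different in any of 3 comparisons or among 9 fixed names (ATF3, FOSL1, EGR3, NR4A2, SRF, NAB2, IRF4, CD69, MYC), of which the text gives a part. The brightness range for the pooled SD was also chosen after. Some genes of these lists are not reported here. Of the markers listed, the erythroid gene HBB read 4.85 to 4.95.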

Additional observations from a re-analysis of the deposited data

Results flagged for a closer look

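JUND, JUNB and BATF differed in opposite directions with CC-292 in the 2 lines, each on its only probe set and with 1 array per group, so the difference between lines was not tested. The REC-1 difference minus the Z138 difference was 0.65 for JUND (0.31 and -0.35), -0.19 for JUNB (-0.11 and 0.08) and -0.25 for BATF (-0.22 and 0.03). The pooled SD of the CC-292 difference within a line, among the probe sets of a gene of like brightness, was 0.41 in REC-1 and 0.34 in Z138. The CC-292 differences of each line were smaller than it except that of JUND in Z138 (-0.35), which was about its size. No pooled SD is given for the difference between lines, so the 0.65 of JUND cannot be judged against it. The SD also does not hold the error between cultures.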

How the results depend on the processing

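Scaling left the directions of all 9 genes in the 3 comparisons as they were, whether arrays were centred on their medians, quantile normalized or fitted by cyclic loess. The choice of probe set mattered more. With the mean of all probe sets, members below 0 in REC-1 numbered 5, and 5 when the middle difference among its probe sets stood for a gene. In Z138 the latter gave 5 in place of 7, with JUN (0.09) and FOSL2 (0.04) turned above 0. Member medians were then -0.11 and -0.11 in REC-1, -0.10 and -0.17 in Z138, and 0.00 (0.0034, the sign turned) and -0.0466 between controls. Only EGR1 and NR4A1 reached the 70th percentile, of which 2, 2 and 1 were below 0 in the 3 comparisons, with medians of -0.38 in REC-1 and -0.45 in Z138. Over all genes, 2-fold higher and lower counts in REC-1 were 38 and 29 with the mean, 40 and 33 with the median difference, 30 and 17 at the 70th percentile, 468 and 512 at 1.5-fold and 6 and 5 at 3-fold; without a brightness minimum 135 were lower. In Z138 they were 10 and 12, 11 and 14, 3 and 16, 236 and 273, and 0 and 0, with 40 and 59 without a minimum. Between controls they were 2402 and 2348 at 1.5-fold and 620 and 628 at 3-fold. The line difference called 4320 to 5734 genes over the limma alternatives, and JUN, BATF, NR4A1, EGR1 and JUNB passed wherever they were tested, with only EGR1 and NR4A1 tested at the 70th percentile. The CC-292 average called 0 in every limma alternative run. CC-292 and control were compared within lines in limma, and the fit without that block also called 0. Replicates were not paired, since each group holds 1 array and the labels give no replicate numbers, and leaving out an array leaves limma no residual degree of freedom. Signal near background limits JUN in Z138, FOS, FOSB, FOSL2 and, with CC-292 in REC-1, all EGR1 probe sets but the brightest.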
